A study of Mus musculus with 11 samples.

Results

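Endothelial genes were read in keratinocytes sorted from wounded and unwounded mouse skin. The 10 genes are *Flt1*, *Kdr*, *Tek*, *Tie1*, *Ptprb*, *Cdh5*, *Pecam1*, *Esam*, *Emcn* and *Plvap*, out of 24421 genes in the count tables. They were chosen from counts measured in these same libraries, being known endothelial genes whose counts, for most of them, were higher in wounded WT than in unwounded WT keratinocytes. Their levels in that comparison are therefore given as a description, with no test.

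RNA-seq covered 7 libraries and ATAC-seq, which maps open chromatin with a transposase, covered 4. The strain was C57BL/6 in the labels and C57BL/6J in the study's methods. WT mice were compared with littermates lacking *Grhl3*, a transcription factor of the epidermis, in keratinocytes, all 8 weeks old. *Grhl3* was deleted with *Krt14-Cre*, which acts in basal keratinocytes. The study's methods call the controls *Krt14-Cre*-WT, but list as strains floxed *Grhl3* mice with and without *Krt14-Cre*. Whether the controls carried the Cre is therefore not settled. Full-thickness punch wounds of 4 mm were made on the back, and 1 mm of wound margin was taken at day 3, with distal unwounded skin as the control. Epidermal cells were sorted for CD49F, and cells positive for CD45, CD31 or TER119 were gated out. CD31 is the product of *Pecam1*. There were 2 unwounded WT, 2 wounded WT, 1 unwounded KO-labelled and 2 wounded KO-labelled RNA libraries, where KO-labelled stands for the genotype label GRHL3 KO. Each wounded ATAC library pooled 4 wounds from 2 mice, per the study, with 1 library per condition.

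Counts on genes totalled 15488699 and 16807451 in unwounded WT, 16653948 and 15418631 in wounded WT, 13497283 in unwounded KO-labelled and 15223569 and 14279568 in wounded KO-labelled libraries. At these depths a count of 0 allows up to 0.178 to 0.222 CPM (a library's counts scaled to the same total over genes, 1e6), taking 3 counts as the limit and covering counting error only. Folds given below as at least a value use this limit for the 0 and take the wounded counts as exact. They cover neither the counting error of the wounded counts nor the spread between libraries. The labels do not say that replicates came from separate mice, so the tests measure the spread between these libraries, which may be technical.

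The sort and genotype labels were checked against marker genes. The keratin gene *Krt14* had between 174815 and 299775 counts per library, and the leukocyte gene *Ptprc*, which encodes CD45, had 0 counts in 5 libraries, 9 in unwounded WT replicate 2 and 11 in wounded KO-labelled replicate 1. *Grhl3* had 1893 and 1398 counts in unwounded WT and 1831 and 1388 in wounded WT libraries. It had 1029 counts in the unwounded KO-labelled library and 1765 and 1491 in the wounded KO-labelled ones. These counts cover the whole gene and not the deleted exons alone, so they do not check the deletion, and group names follow the labels alone.

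The unwounded KO-labelled library stood apart. It had 14854 counts of *Xist*, the RNA of the inactive X chromosome, and 0 counts over 4 Y-linked genes. In the remaining 6 libraries *Xist* counts were 3 to 32 and Y-linked counts 2580 to 3589. In the KO-labelled libraries sex, as read from these genes, and wounding cannot be told apart. All 10 endothelial genes lie on autosomes.

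Endothelial cells line blood and lymph vessels. VEGF receptors and the angiopoietin receptor on their surface drive vessel growth and stability, and adhesion proteins hold neighbouring cells together. During skin repair new vessels grow into the tissue beneath the advancing epidermis.

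Summed over the 10 genes, the level was 3.62 and 5.35 CPM in the unwounded WT and 40.7 and 20.04 CPM in the wounded WT libraries. It was 2.67 CPM in the unwounded KO-labelled library and 13.9 and 18.2 CPM in the wounded KO-labelled libraries. All 4 wounded libraries lay above all 3 unwounded libraries in this sum. The group means were 4.49 ± 1.23 CPM (SD, n = 2) in unwounded WT and 30.3 ± 14.6 CPM (SD, n = 2) in wounded WT keratinocytes, a ratio of 6.77. The wounded KO-labelled mean was 16.1 ± 3.03 CPM (SD, n = 2), 6.02 times the unwounded KO-labelled value and 0.529 times the wounded WT mean. In bulk RNA, fewer cells of a type and less RNA per cell cannot be told apart. The whole sum was 677 counts at most, in wounded WT replicate 1, against 550895 counts over 7 basal keratinocyte genes in the same library.

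**Figure D1:**
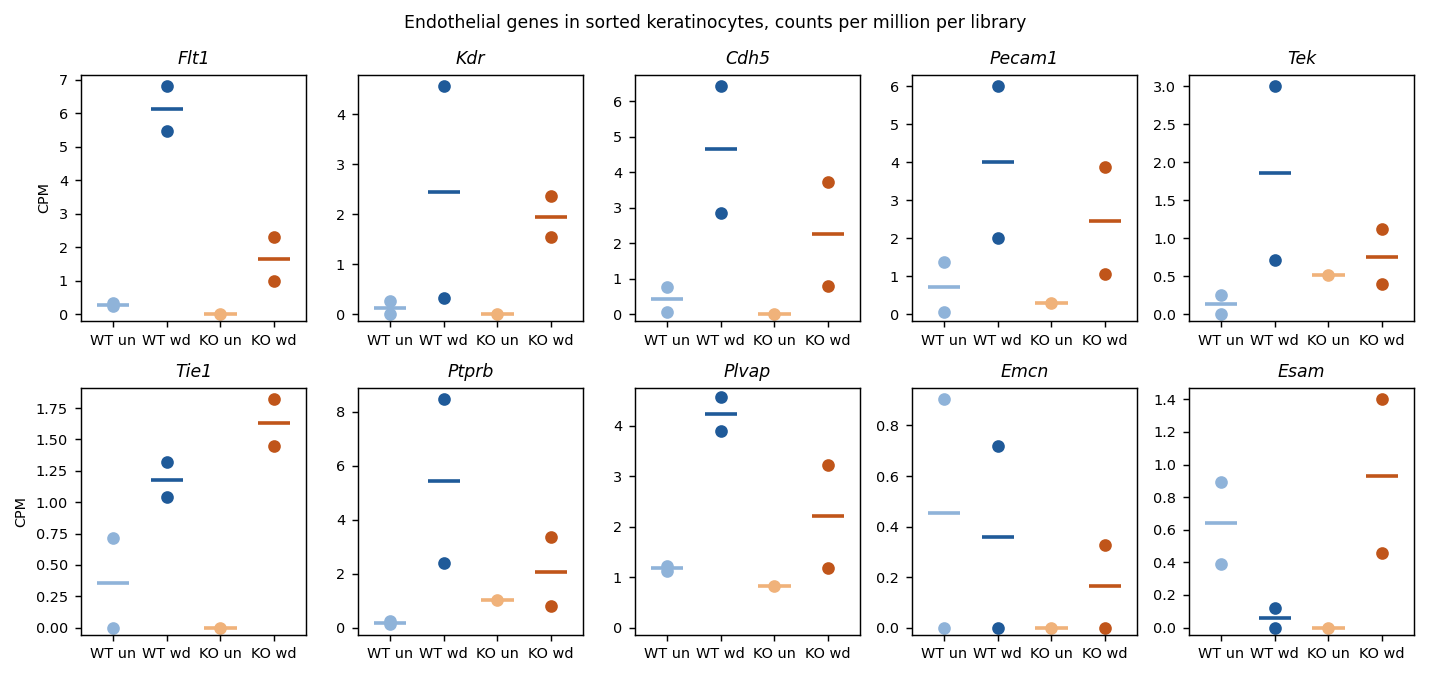
CPM of each endothelial gene (y axis) in each library, by group (x axis; un, unwounded; wd, wounded; KO, labelled GRHL3 KO). Points are libraries and bars are group means; *Flt1* separates all wounded from all unwounded libraries, and *Esam* is lowest in wounded WT and unwounded KO-labelled libraries.

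*Flt1* encodes VEGF receptor 1. It had 5 and 4 counts in unwounded WT and 91 and 105 counts in wounded WT keratinocytes, and 0 counts in unwounded KO-labelled and 35 and 14 counts in wounded KO-labelled keratinocytes. Every wounded library was above every unwounded one, and the groups did not overlap. The WT log2 fold change was 4.44 (standard error 0.97). Counting the 0 as 3 counts, the pooled wounded KO-labelled libraries were at least 7.47-fold higher than the unwounded one, and the lower of them at least 4.41-fold (adjusted p = 0.132, edgeR). Both wounded KO-labelled libraries lay below both wounded WT libraries, and the log2 difference was -1.86 (standard error 0.84), from -2.64 to -1.35 without 1 library, wounded KO-labelled replicate 1 or 2.

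*Kdr* encodes VEGF receptor 2, the main signalling receptor for VEGF-A. Its counts were 4 and 0 in unwounded WT, 76 and 5 in wounded WT, 0 in unwounded KO-labelled and 36 and 22 in wounded KO-labelled libraries. The wounded WT libraries differed 76 to 5, and replicate 2 was only just above the higher unwounded library, at 0.324 against 0.258 CPM. The WT log2 fold change was 4.20 (standard error 1.68), and without wounded WT replicate 1 it was 1.32, whereas without unwounded WT replicate 1 it was 8.22, fitted against 0 counts and no bound. In KO-labelled keratinocytes *Kdr* was at least 8.84-fold higher after wounding over the pooled libraries, and at least 6.93-fold in the lower one (adjusted p = 0.430, edgeR).

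*Tek* encodes TIE2, the angiopoietin receptor. Its tally was 4 and 0 counts in unwounded WT, 50 and 11 in wounded WT, 7 in unwounded KO-labelled and 6 and 16 in wounded KO-labelled keratinocytes. The unwounded KO-labelled value lay between the wounded ones in CPM. The log2 change was 3.80 (standard error 1.88) in WT and 0.51 (standard error 2.09, adjusted p = 0.988 by edgeR) in KO-labelled keratinocytes. Single libraries decided much of both values. The WT change was 2.43 without wounded WT replicate 1, and without unwounded WT replicate 1 it was 7.83, which was fitted against 0 counts and is no bound. The KO-labelled change turned to -0.36 without wounded KO-labelled replicate 2.

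*Tie1* encodes the related receptor TIE1. It had 0 and 12 counts in unwounded WT, 22 and 16 in wounded WT, 0 in unwounded KO-labelled and 22 and 26 in wounded KO-labelled libraries. The lowest wounded value was 1.04 CPM and the highest unwounded value 0.714 CPM, and the WT log2 fold change was 1.72 (standard error 1.68). It was 0.75 without unwounded WT replicate 1, and 7.15 without unwounded WT replicate 2, where it was fitted against 0 counts and is no bound. The pooled wounded KO-labelled libraries were at least 7.32-fold above the unwounded one, and the lower of them at least 6.502-fold (adjusted p = 0.532, edgeR).

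*Ptprb* encodes VE-PTP, a phosphatase that acts on TIE2 and on VE-cadherin complexes. Its counts were 2 and 4 in unwounded WT, 141 and 37 in wounded WT, 14 in unwounded KO-labelled and 12 and 48 in wounded KO-labelled keratinocytes. The WT groups were far apart, whereas the unwounded KO-labelled value lay between the wounded ones. The log2 fold change was 4.84 (standard error 1.12) in WT, or 3.67 without wounded WT replicate 1, and 0.96 (standard error 1.20, adjusted p = 0.897 by edgeR) in KO-labelled keratinocytes, where it turned to -0.36 without wounded replicate 2.

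*Cdh5* encodes VE-cadherin, the adhesion protein of endothelial junctions. It had 1 and 13 counts in unwounded WT, 107 and 44 in wounded WT, 0 in unwounded KO-labelled and 12 and 53 in wounded KO-labelled libraries. All wounded values were above all unwounded values, the closest being 0.788 and 0.773 CPM. Its WT log2 fold change was 3.46 (standard error 1.16), or 6.00 without unwounded WT replicate 2 and 2.61 without unwounded WT replicate 1. Pooled, the wounded KO-labelled libraries were at least 9.91-fold above the unwounded one, and the lower of them at least 3.55-fold (adjusted p = 0.238, edgeR).

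*Pecam1* encodes CD31, the surface protein used to gate endothelial cells out. It had 1 and 23 counts in unwounded WT, 100 and 31 in wounded WT, 4 in unwounded KO-labelled and 59 and 15 in wounded KO-labelled keratinocytes. One wounded KO-labelled library, at 1.05 CPM, was below unwounded WT replicate 2, at 1.37 CPM. The log2 fold change in KO-labelled keratinocytes was 3.03 (standard error 1.66, adjusted p = 0.641 by edgeR), with both wounded libraries higher. It was 1.76 without wounded KO-labelled replicate 1 and 3.70 without replicate 2.

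*Plvap* encodes the protein of endothelial diaphragms. It had 19 and 19 counts in unwounded WT, 76 and 60 in wounded WT, 11 in unwounded KO-labelled and 18 and 46 in wounded KO-labelled libraries. It was the only member with at least 10 counts in every library. In CPM the groups overlapped, since wounded KO-labelled replicate 1, at 1.18 CPM, was below unwounded WT replicate 1, at 1.23 CPM. With TMM scaling, which adjusts for library composition, all wounded values lay above all unwounded values. The WT log2 fold change was 1.86 (standard error 0.85), and that in KO-labelled keratinocytes was 1.40 (standard error 1.11, adjusted p = 0.808 by edgeR), or 0.56 without wounded KO-labelled replicate 2 and 1.93 without replicate 1. Both wounded KO-labelled libraries were below both wounded WT libraries, and the log2 difference was -0.93 (standard error 0.83), or -0.39 without wounded KO-labelled replicate 1 and -1.77 without replicate 2. *Plvap* overlaps *Gtpbp3* on the opposite strand, and reads from the overlap cannot be told apart without strand. Among the other members, *Cdh5* overlaps the antisense gene *Gm29682*, and *Ptprb* overlaps *Gm47625* and *Gm26495* on its own strand.

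*Emcn*, which encodes the sialomucin endomucin, was counted unevenly. It had 14 and 0 counts in unwounded WT, 12 and 0 in wounded WT, 0 in unwounded KO-labelled and 5 and 0 in wounded KO-labelled keratinocytes. The groups overlapped, and no difference was detectable at this depth.

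*Esam* encodes an adhesion molecule of endothelial cells and platelets. It went the other way in WT keratinocytes, with 6 and 15 counts in unwounded and 2 and 0 counts in wounded libraries. The WT log2 fold change was -3.20 (standard error 2.32), or -2.33 without wounded WT replicate 2. Without wounded WT replicate 1 it was -6.26, fitted with 0 wounded counts and no bound. The pooled ratio of wounded to unwounded WT was 0.0959 (95% interval 0.0109 to 0.392, covering counting error and not the spread between libraries). In KO-labelled keratinocytes it had 0 counts before and 7 and 20 after wounding, at least 4.12-fold higher over the pooled libraries and at least 2.07-fold in the lower one (adjusted p = 0.704, edgeR).

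Levels were compared between genes per kilobase of annotated exon, where the overlap with *Gtpbp3* limits the values of *Plvap*. In wounded WT keratinocytes *Plvap* was highest at 2.13 ± 0.239 CPM per kb (SD, n = 2), above *Cdh5* at 1.16 ± 0.632 and *Pecam1* at 0.970 ± 0.683 CPM per kb. *Cdh5* and *Pecam1* did not differ beyond their spread. *Flt1* at 0.560 ± 0.0868, *Ptprb* at 0.423 ± 0.334, *Kdr* at 0.413 ± 0.506 and *Tek* at 0.395 ± 0.344 CPM per kb were within the spread of their neighbours. The lowest means were *Tie1* at 0.259 ± 0.0440, *Emcn* at 0.139 ± 0.197 and *Esam* at 0.0322 ± 0.0455 CPM per kb. In wounded KO-labelled keratinocytes *Plvap* had the highest mean, at 1.11 ± 0.726 CPM per kb, and *Emcn* the lowest, at 0.0635 ± 0.0897 CPM per kb. Neither place held in replicate 1, where *Pecam1*, at 0.938 CPM per kb, was above *Plvap* at 0.595, and *Emcn*, at 0.127, was above *Tek* at 0.0838 and *Ptprb* at 0.0613 CPM per kb.

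Counted over the genes on TMM-scaled CPM, 8 of 10 were higher in both wounded WT than in both unwounded WT libraries, where 16.7% of the 14045 genes tested were. The members were chosen with this comparison known, and nothing is read from that count. The median WT log2 fold change was 2.97 over the 10 genes and 0.00 over all genes tested. Without wounded WT replicate 1, which was above replicate 2 for 9 of the 10 genes, the median was 1.64. All 10 genes passed edgeR's expression filter, which asked for about 0.649 CPM in 1 library, and 7 of the 10 reached this in an unwounded library. *Flt1*, *Kdr* and *Tek* reached it only in wounded libraries.

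In the KO-labelled libraries, which are not part of that comparison, 6 of 10 genes were at least 2-fold higher in both wounded libraries than in the unwounded one, against 5.69% of all genes tested. These were *Flt1*, *Kdr*, *Cdh5*, *Pecam1*, *Tie1* and *Esam*, of which *Flt1* and *Kdr* passed the expression filter only through wounded libraries. By the same rule 13 of 25 tested genes of the further endothelial surface and secreted list, 5 of 8 fibroblast, 3 of 7 mural and smooth muscle and 3 of 8 leukocyte genes were higher, so other lists held such genes too. The counts were 1 of 12 endothelial transcription factor, 2 of 8 ligand and co-receptor, 0 of 7 basal, 1 of 6 suprabasal, 2 of 6 melanocyte, 1 of 2 erythroid and platelet, 0 of 2 Schwann cell and 1 of 2 skeletal muscle genes. The share of all genes was not matched for count level, and only 1 member had at least 10 counts in every library. Nothing about enrichment is therefore read from the count of members. That count rests on 1 unwounded library, the library with high *Xist*, in which 6 of the genes were at 0. With that library assumed to vary like the other groups, edgeR with Benjamini-Hochberg adjustment called 0 of the 10 genes, against 0.947% of all genes tested (133 genes). At an unadjusted P under 0.05 edgeR gave 4 of the 10, among them *Flt1* and *Kdr*, against 9.32% of all genes. DESeq2 called 0 after adjustment (1.79% of all genes) and gave 5 at an unadjusted P under 0.05 (9.29%). *Flt1* and *Cdh5* were called without the expression filter, where calls over all genes also rose, to 2.68%, and by edgeR's likelihood ratio test, where they rose to 1.79%.

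Across genotypes, 5 of 10 genes were higher in all 4 wounded than in all 3 unwounded libraries, against 3.09% of all genes tested. They were *Flt1*, *Kdr*, *Cdh5*, *Tie1* and *Plvap*. With RLE size factors, another scaling between libraries, the count was also 5. In CPM without TMM scaling, an alternative chosen after seeing the data, the count was 4 of 10 against 2.74%, without *Plvap*. These counts include the WT libraries that chose the members, and *Flt1* and *Kdr* passed the expression filter only through wounded libraries. Without the unwounded KO-labelled library the count with TMM scaling was 7, against 8.13% of all genes tested then.

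Between the wounded groups, 2 of 10 genes, *Flt1* and *Plvap*, were lower in both KO-labelled than in both WT libraries, where 15.2% of all genes tested were. This comparison shares the wounded WT libraries with the one known when the members were chosen. With 1 of these libraries left out the rule is easier to meet. The count was 8 without wounded WT replicate 2, against 33.8% of all genes tested then, and 5 without wounded KO-labelled replicate 2, against 31.2%. It was 2 without wounded WT replicate 1 (31.6%) and 3 without wounded KO-labelled replicate 1 (30.7%). The difference in wound response between genotypes was also fitted. Its tests are not reported for the members, since that difference contains the WT comparison known when they were chosen.

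Other endothelial genes were read from fixed lists. Of 32 further surface and secreted genes, 25 were tested, and 13 of these were higher in both wounded WT libraries and 3 lower. For this and the next lists, the shares over all genes tested were 16.7% higher and 16.2% lower. The list summed to 69.9 and 92.5 CPM in unwounded WT, 108 and 123 in wounded WT, 103 in unwounded KO-labelled and 91.4 and 98.6 in wounded KO-labelled libraries. *Cd34*, its most abundant gene in 6 libraries, made up 34.9 and 53.1, 27.9 and 24.0, 63.3, and 26.0 and 19.9 CPM of these, in that order. *Cd34* was lower after wounding, so the sums do not show how the rest of the list went. *Flt4*, which encodes VEGF receptor 3 of lymphatic vessels, had 0 and 0 counts in unwounded WT, 39 and 7 in wounded WT, 0 in unwounded KO-labelled and 54 and 35 in wounded KO-labelled keratinocytes. Against 3 counts in a library at 0, the lower wounded library was at least 2.34-fold higher in WT and at least 11.03-fold higher in KO-labelled keratinocytes. *Egfl7* had 0 and 10 counts in unwounded WT and 30 and 62 in wounded WT libraries, and 0 and then 25 and 4 in KO-labelled ones. *Mmrn2* had 5 and 3 and then 61 and 5 in WT, and 4 and then 10 and 25 in KO-labelled libraries. *Notch4* and *Aplnr*, genes of receptors of vessel development, had at most 24 and 11 counts in any library. Other genes of the list had fewer counts in wounded WT libraries. The adhesion gene *Icam2* had 27 and 62 counts in unwounded and 9 and 16 in wounded WT libraries, a ratio of 0.283, but 1 and then 8 and 11 counts in KO-labelled libraries. *Ramp2* had 24 and 30 and then 17 and 22 in WT, and 20 and then 41 and 11 in KO-labelled libraries. *Eng*, which encodes endoglin, had 49 and 35 and then 39 and 18 in WT, and 15 and then 19 and 65 in KO-labelled libraries. *Icam2*, *Ramp2* and *Cd34* were the 3 lower genes in WT, whereas the groups overlapped for *Eng*.

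In this list edgeR called 2 of the 25 tested genes in the KO-labelled comparison, 1 higher and 1 lower, where 0.947% of all genes tested were called. *Vwf*, which encodes von Willebrand factor, had 1 count in the unwounded and 42 and 110 counts in the wounded KO-labelled libraries (adjusted p = 0.0441, edgeR). It had 30 and 36 counts in unwounded WT and 76 and 62 in wounded WT libraries, so the unwounded KO-labelled library lay far below both unwounded WT libraries. *Cd34*, the most abundant of the list by its mean count and also a gene of hair follicle keratinocytes, fell by 1.47 on the log2 scale (adjusted p = 0.0336, edgeR), from 854 counts to 396 and 284 after wounding, and had 540 and 892 counts in unwounded WT and 464 and 370 in wounded WT libraries. The ratio for *Vwf* was 69.5 (95% counting interval 12.3 to 2764), against 1 count in the library with high *Xist*.

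Of 21 endothelial transcription factor genes, 12 were tested, and 3 were higher and 2 lower in both wounded WT libraries. Most of their counts came from *Klf4*, which keratinocytes also express, with 16602 to 31346 counts per library. The endothelial regulators *Erg* and *Fli1* had at most 10 and 13 counts in any library, and *Sox17* had 0 in all 7 libraries. *Bcl6b* had 0 and 5 counts in unwounded WT, 24 and 3 in wounded WT and 0 in the KO-labelled libraries, and the WT groups overlapped. *Hey1* had at most 12 counts. *Prox1*, a lymphatic regulator, had 20 and 1 counts in unwounded WT, 47 and 0 in wounded WT, 6 in unwounded KO-labelled and 27 and 3 in wounded KO-labelled libraries.

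Among 8 tested genes for VEGF and angiopoietin ligands and co-receptors, 3 were higher and 0 lower in both wounded WT libraries. *Vegfa*, which encodes a ligand of the receptors encoded by *Flt1* and *Kdr*, had 1669 and 2216 counts in unwounded WT and 2174 and 2541 in wounded WT keratinocytes. It had 594 counts in the unwounded KO-labelled and 2028 and 1634 in the wounded KO-labelled libraries, a rise of 1.49 on the log2 scale (standard error 0.25, adjusted p = 0.0116 by edgeR). That unwounded KO-labelled library, the one with high *Xist*, was at 44.0 CPM, below both unwounded WT libraries at 108 and 132 CPM. *Pgf*, which also encodes a ligand of VEGF receptor 1, had 0 counts in all unwounded libraries, 15 and 28 in wounded WT and 19 and 6 in wounded KO-labelled libraries. *Nrp1*, *Angpt2* and *Figf* had WT log2 fold changes of 0.70, 0.37 and 0.26, each smaller than its standard error times 2.

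Markers of other cells were read in the same libraries, and their part in the results above was not tested. Of 7 tested mural and smooth muscle genes 3 were higher and 0 lower in both wounded WT libraries. *Acta2*, smooth muscle actin, had 9 and 39 counts in unwounded WT, 275 and 154 in wounded WT, 1 in unwounded KO-labelled and 11 and 64 in wounded KO-labelled libraries. The pericyte gene *Rgs5* was at 0 in 6 libraries and had 1 count in wounded KO-labelled replicate 1. *Notch3* had the highest mean count of that list, with 1426 to 1904 counts, although *Cspg4*, with 908 to 2085, exceeded it in 4 libraries. The mural list summed to 240 and 237 CPM in unwounded WT and 258 and 219 CPM in wounded WT libraries. Its sum was 295 CPM in the unwounded KO-labelled and 210 and 177 CPM in the wounded KO-labelled libraries. Over 10 fibroblast genes the sum was 116 and 147 CPM in unwounded WT, 112 and 173 in wounded WT, 54.6 in unwounded KO-labelled and 160 and 148 in wounded KO-labelled libraries, and its most abundant gene by mean count was *Fbln1*. Of its 8 tested genes 2 were higher and 1 lower in both wounded WT libraries, and *Dcn*, which encodes decorin, had 13 and 0 counts in unwounded WT, 46 and 33 in wounded WT, 0 in unwounded KO-labelled and 25 and 24 in wounded KO-labelled libraries. In the KO-labelled comparison edgeR called 2 of the 8 fibroblast genes, both higher, *Col3a1* with 4 counts before and 129 and 202 after wounding (adjusted p = 0.0311, edgeR) and *Fbln1* with 236 and then 1116 and 591 (adjusted p = 0.0360, edgeR). In WT libraries *Col3a1* had 155 and 61 counts before and 76 and 259 after wounding and *Fbln1* 774 and 1251 and then 1024 and 925, and the groups overlapped, with both unwounded WT values above the unwounded KO-labelled one. Of the 7 mural genes it called 1, *Cspg4*, which was lower, with 2085 and then 1091 and 908 counts (adjusted p = 0.0360, edgeR), and 2021 and 2025 and then 2081 and 1171 counts in WT libraries. Over 14 leukocyte genes the sum was 10.1 and 26.8 CPM in unwounded WT and 18.9 and 53.8 CPM in wounded WT libraries. It was 14.0 CPM in the unwounded KO-labelled and 24.9 and 29.3 CPM in the wounded KO-labelled libraries, and *Cd74* was its most abundant gene in 6 of 7 libraries. Of 8 tested leukocyte genes 2 were higher and 0 lower in both wounded WT libraries, and *Lyz2*, the lysozyme gene of myeloid cells, had 0 counts in all unwounded libraries, 16 and 37 in wounded WT and 9 and 40 in wounded KO-labelled libraries.

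The hemoglobin genes *Hba-a1* and *Hbb-bs* were at 0 in all 7 libraries, and the erythroid and platelet list, led by *Itga2b*, summed to 2.59 to 10.4 CPM. The melanocyte list, led by *Mitf*, summed to 41.1 and 39.4 CPM in unwounded WT and 37.9 and 26.7 CPM in wounded WT libraries. It summed to 59.3 CPM in the unwounded KO-labelled and 33.8 and 32.3 CPM in the wounded KO-labelled libraries. All wounded sums thus lay below all unwounded ones. Of its 6 tested genes 2 were higher and 1 lower in both wounded WT libraries. The higher ones encode enzymes of pigment synthesis. *Dct* had 12 and 4 counts in unwounded WT, 79 and 37 in wounded WT, 6 in unwounded KO-labelled and 61 and 40 in wounded KO-labelled libraries, with all wounded above all unwounded values. *Tyr* had 0 and 2 counts in unwounded and 40 and 25 in wounded WT libraries, and 14 and then 6 and 18 in KO-labelled ones. The Schwann cell list was led by *Mbp*, at 31.9 to 56.9 CPM, and skeletal muscle genes, led by *Acta1* in mean count, summed to at most 4.13 CPM. Among keratinocyte genes, 1 of 7 basal and 1 of 6 suprabasal genes were higher in both wounded WT libraries, and 1 and 3 were lower. In the KO-labelled comparison edgeR called 1 of the basal genes, *Krt15*, lower with 64059 counts before and 34555 and 35939 after wounding (adjusted p = 0.00655, edgeR), with 44621 and 46234 and then 36454 and 30993 counts in WT libraries, and 0 of the suprabasal, leukocyte, melanocyte, erythroid and platelet, Schwann cell and skeletal muscle genes. By mean count the basal genes were led by *Krt14* and the suprabasal ones by *Krt1*.

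Outside the list, the genes with the profile most like the summed members over 7 libraries were *Grik3*, *Timp1*, *Srpx*, *Ank1*, *Csf3*, *2010107G12Rik*, *Zbed5*, *B4galt6*, *Adamts2* and *Isg15*. The mean absolute difference of their centred log2 CPM from that of the sum ranged from 0.28 to 0.45. *Timp1*, a metalloproteinase inhibitor, had 0 counts in all unwounded libraries, 14 and 12 in wounded WT and 7 and 9 in wounded KO-labelled libraries.

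To ask whether chromatin at these genes was listed as open, peaks in each gene or within 5 kb were counted in mm10. The lists held 10769 peaks in unwounded WT, 36872 in wounded WT, 29364 in unwounded KO-labelled and 22474 in wounded KO-labelled keratinocytes. With 1 pooled library per condition there was no replicate and no test, and longer lists covered more genes.

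A peak was listed at 3 of 10 endothelial genes in unwounded WT keratinocytes, where 33.3% of 23334 annotated genes had one, and at 7 of 10 in wounded WT keratinocytes, against 60.7%. The counts were 4 of 10 against 56.7% in unwounded KO-labelled and 5 of 10 against 47.7% in wounded KO-labelled keratinocytes. With each list shortened to the length of the unwounded WT list, 2 genes had a peak in wounded WT and 2 in unwounded KO-labelled keratinocytes. In wounded KO-labelled keratinocytes 3 had one, as in unwounded WT. Shares of all genes at that length are not given, so nothing about the members is read from these counts. The shares in the full lists were near those of all genes, although the members are longer, with a median of 68.4 kb against 15.5 kb. Within 1 kb of a transcript start, 1 of 10 genes had a peak in unwounded WT (24.6% of all genes), 2 in wounded WT (46.1%), 1 in unwounded KO-labelled (42.7%) and 3 in wounded KO-labelled keratinocytes (36.3%). *Cdh5*, *Tie1* and *Emcn* had no peak in the gene or within 5 kb in any list. Within 10 kb *Cdh5* had one in wounded WT keratinocytes, and *Tie1* and *Emcn* had none.

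**Figure D2:**
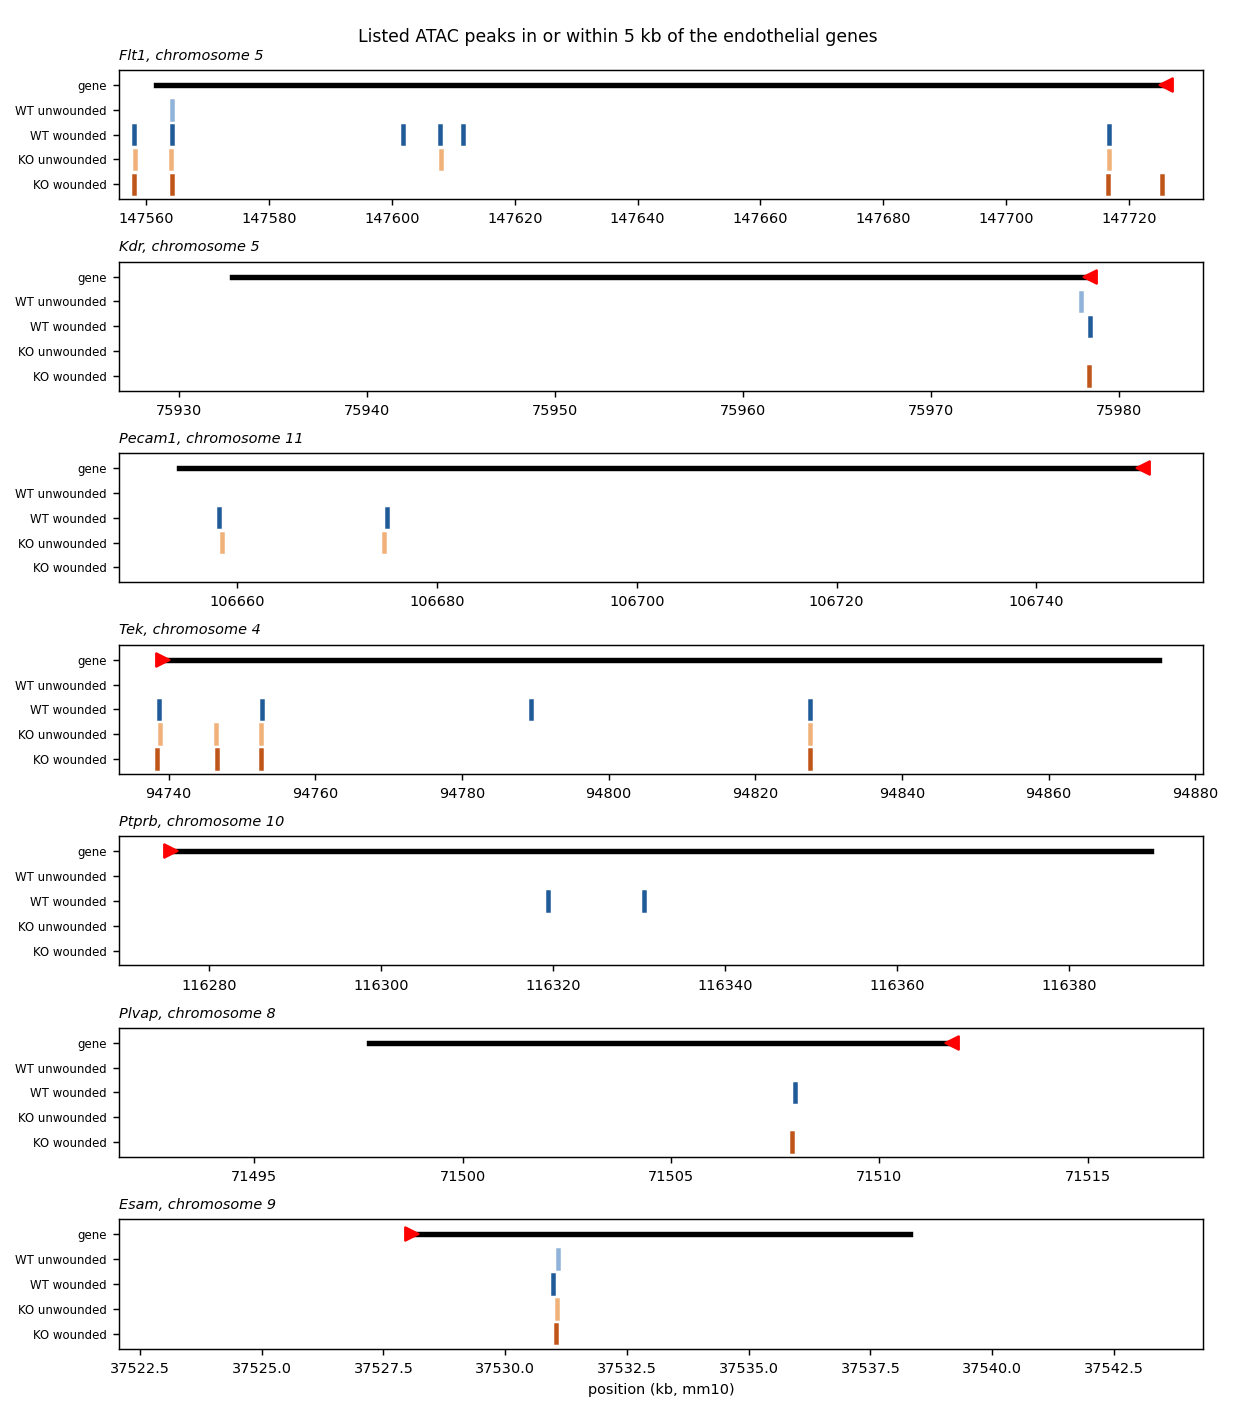
Listed ATAC peaks in or within 5 kb of the endothelial genes that had any, with position in kb (mm10) on the x axis and 1 line per list on the y axis. The black line is the gene, the red arrow its start and direction, and each bar marks the middle of a peak and not its width; *Esam* has a peak in all 4 lists and *Kdr* has peaks at or near its start in 3.

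The peaks fell at 20 sites, of which 7 were in 1 list, 6 in 2 lists, 5 in 3 lists and 2 in all 4. Their median fold enrichment over the local background was 4.15 in wounded WT, 4.14 in unwounded KO-labelled and 4.25 in wounded KO-labelled keratinocytes. The medians of all peaks in these lists were 4.21, 3.996 and 4.36. In unwounded WT keratinocytes the 3 peaks had a median of 3.76 against 4.18.

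*Kdr* (chr5:75932827-75978458, minus strand) had peaks over its first exon. In wounded WT keratinocytes the peak at chr5:75978198-75978692 covered the start, with a fold enrichment of 4.59, and in wounded KO-labelled keratinocytes the peak at chr5:75978269-75978525 did, with 4.92. The unwounded WT peak at chr5:75977867-75978122 lay 336 bases inside the gene, with 3.51, and the unwounded KO-labelled list had none.

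*Tek* (chr4:94739289-94874976, plus strand) had 4 peaks in each list but unwounded WT, which had none. A peak upstream of its start was listed at chr4:94738366-94739125 in wounded WT, chr4:94738402-94739134 in unwounded KO-labelled and chr4:94738064-94738787 in wounded KO-labelled keratinocytes. Its fold enrichment was 3.48, 4.31 and 3.75 in that order. The count of *Tek* in the unwounded KO-labelled RNA library was 7.

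*Flt1* (chr5:147561604-147726011, minus strand) had 1 peak in unwounded WT, 6 in wounded WT and 4 in each of the KO-labelled lists. The peak in its last exon, within chr5:147563746-147564480, was in all 4 lists, with fold enrichments from 3.76 to 5.17. The peak nearest to its start was in an intron 434 bases away, at chr5:147725121-147725577, and only in the wounded KO-labelled list.

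*Esam* (chr9:37528078-37538319, plus strand) had an intronic site within chr9:37530633-37531340 in all 4 lists, with fold enrichments from 4.36 to 5.26. Its count was 0 to 20 per library. *Plvap* had a peak in its exon 3 in both wounded lists, within chr8:71507815-71508070. *Pecam1* had intronic peaks within chr11:106658104-106658749 and chr11:106674437-106675226 in the wounded WT and unwounded KO-labelled lists, and *Ptprb* had peaks in wounded WT keratinocytes alone, at chr10:116319275-116319459 and chr10:116330430-116330758.

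Among the other lists, a peak was listed in wounded WT keratinocytes at 16 of 32 further endothelial surface and secreted genes, 12 of 21 endothelial transcription factor genes, 3 of 7 basal and 4 of 6 suprabasal keratinocyte genes, against 60.7% of all genes. In unwounded WT keratinocytes, against 33.3%, the counts in the same order were 3, 6, 0 and 1. In unwounded KO-labelled keratinocytes, against 56.7%, they were 15, 11, 5 and 5, and in wounded KO-labelled keratinocytes, against 47.7%, they were 10, 9, 2 and 3.

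The sequence upstream of *Kdr* and *Tek* is shown because these are the members with a peak at or just before the start in at least 2 lists, and the *Esam* stretch as an example of the 2 sites that were in all lists, the other lying in the last exon of *Flt1*. The promoters are from RefSeq (GRCm38.p6), in a promoter table with entries for 5 of the 10 genes, and the *Esam* stretch is from the same build. Capitals mark bases within the peaks of at least 2 lists. The *Kdr* stretch is chr5:75978456-75978705 on the minus strand, the *Tek* stretch chr4:94739039-94739288 on the plus strand and the *Esam* stretch chr9:37530933-37531232 on the plus strand.
Kdr: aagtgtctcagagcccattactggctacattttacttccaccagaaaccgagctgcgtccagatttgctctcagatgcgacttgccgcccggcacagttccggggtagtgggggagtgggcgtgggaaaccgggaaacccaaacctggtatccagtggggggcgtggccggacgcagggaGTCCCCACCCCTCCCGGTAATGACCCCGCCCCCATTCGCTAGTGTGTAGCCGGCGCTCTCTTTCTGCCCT
Tek: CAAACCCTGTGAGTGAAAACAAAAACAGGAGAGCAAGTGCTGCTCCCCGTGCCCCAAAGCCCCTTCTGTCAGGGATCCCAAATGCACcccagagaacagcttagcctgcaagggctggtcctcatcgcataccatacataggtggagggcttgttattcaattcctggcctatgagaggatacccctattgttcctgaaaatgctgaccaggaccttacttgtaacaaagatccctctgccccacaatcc
Esam: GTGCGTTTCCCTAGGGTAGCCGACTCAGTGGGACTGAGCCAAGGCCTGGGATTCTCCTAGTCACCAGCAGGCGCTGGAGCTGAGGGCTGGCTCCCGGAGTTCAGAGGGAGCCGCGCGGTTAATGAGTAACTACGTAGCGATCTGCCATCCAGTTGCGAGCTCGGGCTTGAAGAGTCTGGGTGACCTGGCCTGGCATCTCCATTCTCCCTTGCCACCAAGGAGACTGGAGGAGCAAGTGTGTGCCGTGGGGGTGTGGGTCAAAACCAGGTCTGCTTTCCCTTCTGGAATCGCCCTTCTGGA

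The letters GGAA, the core bound by ETS factors, AGGAAG, a longer string that holds this core, and AACNNGTT, a pattern bound by grainyhead-like factors, were searched on both strands. GGAA was found 4 times in the *Kdr*, 2 times in the *Tek* and 3 times in the *Esam* stretch, and it was in 93.5% of 32851 promoter windows of 250 bases and in 95.8% of 300-base windows centred on the wounded WT peaks. Neither AGGAAG nor AACNNGTT was found in these 3 stretches. AGGAAG was in 29.5% and AACNNGTT in 3.64% of the promoter windows, and in 33.8% and 6.55% of the peak windows. A missing match says only that these letters are not in these windows.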

How the data were processed

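RNA-seq and ATAC-seq were performed on sorted keratinocytes. For RNA-seq the authors deposited raw counts of reads by gene symbol. The labels' processing notes and the paper name FastQC and kallisto, and the paper also names edgeR. Which step made the counts is not given in the sources used here. Entries that name no gene were left out; reads without a unique alignment were 3.46% to 4.74% and ambiguous reads 1.34% to 1.45% of each library. For ATAC-seq the authors deposited broad peaks called with MACS2 after bowtie2 on mm10, 1 list per condition, with a fold enrichment over background, and deposited a −log10 p-value and −log10 q-value per peak and a score, which was not used. The largest q in the lists was 0.0986. The name of the list of KO-labelled wounded cells, unlike those of the other 3, does not mark it as called without a control, so its calling may have differed.

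CPM was computed over gene totals. edgeR 4.0.16 in R 4.3.3 fitted 7 libraries in 4 groups without a replicate block, with TMM and filterByExpr, and two-sided quasi-likelihood tests were adjusted by Benjamini-Hochberg over 14045 genes and a threshold of 0.05. Overlap of groups was read on TMM-scaled CPM, and the 2-fold rule on log2 CPM with prior count 2. The genotype by wounding interaction was fitted, but its tests are not reported for the members, whose choice used the WT comparison within it. Standard errors were derived from each fold change and its F statistic. Folds against a KO-labelled library at 0 used 3 counts in that library, set against the pooled wounded libraries and against the lower of them; for WT libraries at 0, 3 counts in the smaller library were set against the lower wounded one. The biological coefficient of variation was 31.6%, and replicate counts differed by more than sampling noise (chi-square per degree of freedom 29.2, 39.9 and 34.9). The fit was tested on simulated data.

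Peaks were matched by at least 1 base to GENCODE vM21 genes; 23334 symbols matched 1 gene. Exon lengths are the union of basic transcripts. Python 3.11.15, pandas 2.3.3, numpy 2.4.6, matplotlib 3.10.9, samtools 1.23.1 and DESeq2 1.42.0 were used. Alternatives were RLE size factors, no filter, a minimum of 10 counts per library, DESeq2, the likelihood ratio test, a replicate block, only WT libraries, prior count 0.5, CPM without TMM (added after seeing the data) and leaving out each library; for peaks, lists of equal length, q of at most 0.01, a fold enrichment from 4 up, and distances of 0 kb, 10 kb and 1 kb from a transcript start.

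The members and lists were chosen with earlier results of these data known. Named genes are the members; the top gene of each list by mean count; for the 3 other endothelial and ligand lists the 5 tested genes with the largest WT fold change; the 10 genes of most similar profile; and *Grhl3*, *Xist*, the Y-linked genes *Ddx3y*, *Eif2s3y*, *Kdm5d* and *Uty*, and *Ptprc*. *Vwf*, *Cd34*, *Icam2*, *Ramp2*, *Eng*, *Sox17*, *Acta2*, *Rgs5*, *Cspg4*, *Col3a1*, *Krt15*, *Dcn*, *Lyz2*, *Dct*, *Tyr*, *Hba-a1* and *Hbb-bs* were named after their values were seen. Age, day, wound size and pooling are from the paper's methods and legends.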

Additional observations from a re-analysis of the deposited data

Results flagged for a closer look

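*Esam* had fewer counts in both wounded WT libraries, and more in both wounded KO-labelled libraries, than in the unwounded libraries of the same genotype, at 0 to 20 counts per library and with 1 unwounded KO-labelled library. Counts went from 6 and 15 to 2 and 0 in WT and from 0 to 7 and 20 in KO-labelled keratinocytes. The fitted log2 difference between the responses was 10.05, which depends on the prior count since the unwounded KO-labelled library was at 0, and is no bound. The test of this difference is not reported, since the difference contains the WT comparison known when the genes were chosen. The KO-labelled comparison did not pass the threshold (adjusted p = 0.704 by edgeR).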

How the results depend on the processing

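The median WT log2 fold change of the members stayed positive in every alternative run for it. These were RLE size factors, no filter, at least 10 counts per library, DESeq2, the likelihood ratio test and a replicate block. The others were only WT libraries, with 8 members tested and *Kdr* and *Esam* filtered out, and leaving out each WT library. The members were chosen with this comparison known, so its sign was largely set by that choice and is no support. In CPM without TMM, chosen after seeing the data, 4 members in place of 5 were higher in all wounded libraries. When at least 10 counts were asked of every library, 1 member, *Plvap*, was left, so the counts fell to 1 for wounded WT over unwounded, 1 for wounded KO-labelled under wounded WT, 0 for the 2-fold rule and 1 for all wounded over all unwounded libraries. Members called in the KO-labelled comparison were 2 without the filter and 2 by the likelihood ratio test, against 0 otherwise; the cause was not tested.

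Leaving out each WT library in turn, the median WT log2 fold change was 1.64 to 3.72, lowest without wounded WT replicate 1. With any 1 library of a rule left out, that rule is easier to meet, and the shares of all genes rose too. The count of members lower in KO-labelled than wounded WT libraries was 2 to 8 (30.7% to 33.8% of all genes). The count higher in wounded WT libraries was 8 to 8 (32.1% to 33.9%), in all wounded libraries 5 to 7 (4.68% to 8.13%) and by the 2-fold rule 7 to 8 (9.54% to 11.3%). A lone library is assumed to vary like the other groups.

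With a replicate block the median WT log2 fold change was 3.05 and 0 members were called in the KO-labelled comparison, where 213 genes were, against 133 without it. At an unadjusted P under 0.05 it gave 2 members, against 4 without it, while the share of all genes was 10.7%, against 9.32%. The labels do not tie the numbers to animals, and the deviations of same-numbered WT libraries correlated at 0.15 across genes, which does not settle whether they share an animal or a batch. For the unwounded KO-labelled library the sources disagree on that number (2 in its title, used here, and 1 elsewhere), and the 213 calls rest on it.

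With peaks of q at most 0.01, and likewise with a fold enrichment of at least 4, 1 member had a peak in unwounded WT keratinocytes. Under both settings the counts were 6 in wounded WT, 4 in unwounded KO-labelled and 5 in wounded KO-labelled keratinocytes. Within 10 kb the counts were 3 in unwounded WT, 8 in wounded WT, 5 in unwounded KO-labelled and 5 in wounded KO-labelled keratinocytes. With lists of equal length the counts were 2 in wounded WT, 2 in unwounded KO-labelled and 3 in wounded KO-labelled keratinocytes, against 3 in unwounded WT. Within 1 kb of a transcript start they were 1, 2, 1 and 3 in the order unwounded WT, wounded WT, unwounded KO-labelled and wounded KO-labelled. Outside this last setting, shares of all genes are not given here, and nothing about the members is read from those counts.

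Counts under 10 in at least 1 library limit the statements on all members but *Plvap*.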
